A study of Mus musculus with 3 samples.

Results

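The small leucine-rich proteoglycans are described here, chosen by name with earlier results of these data known. These are 9 secreted matrix genes, Dcn, Bgn, Aspn, Lum, Fmod, Prelp, Kera, Omd and Ogn. They were read by every probe set, the group of short probes that reports 1 transcript region, whose only gene symbol in the array annotation is one of the 9. That gave 20 of the 45101 probe sets of the array and 9 of the 18193 genes named on it. RNA came from MC3T3-E1, an established mouse preosteoblast line, which per the labels derives from C57BL/6 calvaria and is fibroblast-like. All cells were kept for 3 days at 37 °C in MEM α with 10% fetal bovine serum. For normal medium the labels name no more than this, osteogenic medium had beta-glycerophosphate at 10 mM, a phosphate source, plus 150 µM ascorbic acid 2-phosphate, a stable vitamin C, and the last group had osteogenic medium with 0.6% dimethyl sulfoxide (DMSO), in which, per the labels, more mineral was stained by alizarin red S. Each condition had 1 array, so there is no replicate, no error and no test, and precision is limited by this number of arrays.

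Proteins of this family share a curved core of leucine-rich repeats that binds collagen fibrils and sets how wide and how regularly spaced the fibrils grow. Many carry chondroitin, dermatan or keratan sulfate chains, and several also bind growth factors of the TGF-beta family. In bone they are laid down by cells of the osteoblast lineage, and osteomodulin, also called osteoadherin, binds hydroxyapatite as well. By core sequence and cysteine spacing, decorin, biglycan and asporin form class I, lumican, fibromodulin, PRELP, keratocan and osteomodulin class II, and osteoglycin belongs to class III.

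The 9 genes lie in few places of the mouse genome. In order of start coordinate, Aspn, Omd and Ogn are consecutive protein-coding genes of chromosome 13, Dcn, Lum and Kera of chromosome 10, and Prelp and Fmod of chromosome 1. Bgn is on the X chromosome. The block on chromosome 13 is shown first because its middle gene, Omd, differed between media in the direction opposite to both of its neighbours. The 250 bases before the annotated start of each of these 3 genes are given from RefSeq in build GRCm38.p6, all on the plus strand. The Aspn stretch is chr13:49544193-49544442, that of Omd chr13:49582212-49582461 and that of Ogn chr13:49607765-49608014. Capitals mark the letters TATAAA and CCAAT, the TATA and CCAAT boxes, read on either strand.
Aspn: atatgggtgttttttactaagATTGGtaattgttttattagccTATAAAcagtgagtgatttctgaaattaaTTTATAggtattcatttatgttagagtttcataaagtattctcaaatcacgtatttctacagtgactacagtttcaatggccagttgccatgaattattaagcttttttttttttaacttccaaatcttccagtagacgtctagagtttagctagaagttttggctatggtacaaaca
Omd: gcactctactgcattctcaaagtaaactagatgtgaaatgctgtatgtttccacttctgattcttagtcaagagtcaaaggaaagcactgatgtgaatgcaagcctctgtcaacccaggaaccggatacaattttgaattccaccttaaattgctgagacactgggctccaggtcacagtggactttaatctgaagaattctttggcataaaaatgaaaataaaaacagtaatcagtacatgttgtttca
Ogn: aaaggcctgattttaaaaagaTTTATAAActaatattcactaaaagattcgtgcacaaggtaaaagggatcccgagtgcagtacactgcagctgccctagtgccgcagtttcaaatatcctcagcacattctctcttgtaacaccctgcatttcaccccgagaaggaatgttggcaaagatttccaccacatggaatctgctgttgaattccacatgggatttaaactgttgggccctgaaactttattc
In Ogn the single run of capitals holds TATAAA on both strands, overlapping, and begins 229 bases before the start. In Aspn, CCAAT lies on the reverse strand 229 bases before the start, and TATAAA lies 207 bases before it and, on the reverse strand, 178 bases before it. The Omd stretch holds neither. G and C made up 30.0% of the Aspn stretch, 38.4% of that of Omd and 42.0% of that of Ogn.

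Promoters of 7 of the 9 genes were in the RefSeq table, as windows of 300 bases that end 50 bases after the start, and 5 motifs were searched on both strands. TATAAA was in 2 of the 7 (Aspn and Ogn) and in 13.6% of all 32851 promoters of that length. CCAAT was in 4 (Prelp, Fmod, Kera and Aspn) against 37.4% of all. CAGAC, the letters bound by SMAD factors, was in 2 (Prelp and Fmod) against 49.6%. The RUNX letters AACCACA and the AP-1 letters TGACTCA were in none of the 7, and in 5.27% and 5.2% of all promoters. These are matches of letters in 1 window and do not show where a factor binds.

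Values are log2 levels as deposited, and a difference of 1 between arrays is a 2-fold change. Values under a floor of 3.54, the median over the whole of the deposited values, were set to that floor. Of the 20 probe sets, 18 were above the floor on every array, and they read 8 of the 9 genes. Each gene is represented by its probe set of highest mean, with the others beside it. "Rose" and "fell" are used for changes of at least 2-fold, and "higher" and "lower" for smaller differences. Different probe sets of a gene are the single repeat measurement. Over 5180 genes with a pair of probe sets above the floor, the difference of 1 probe set scattered with an SD of 0.13 for osteogenic against normal medium and of 0.11 for DMSO, which leaves out the spread between cultures. In RNA from whole cultures, fewer cells of a type and less RNA per cell cannot be told apart.

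**Figure D1:**
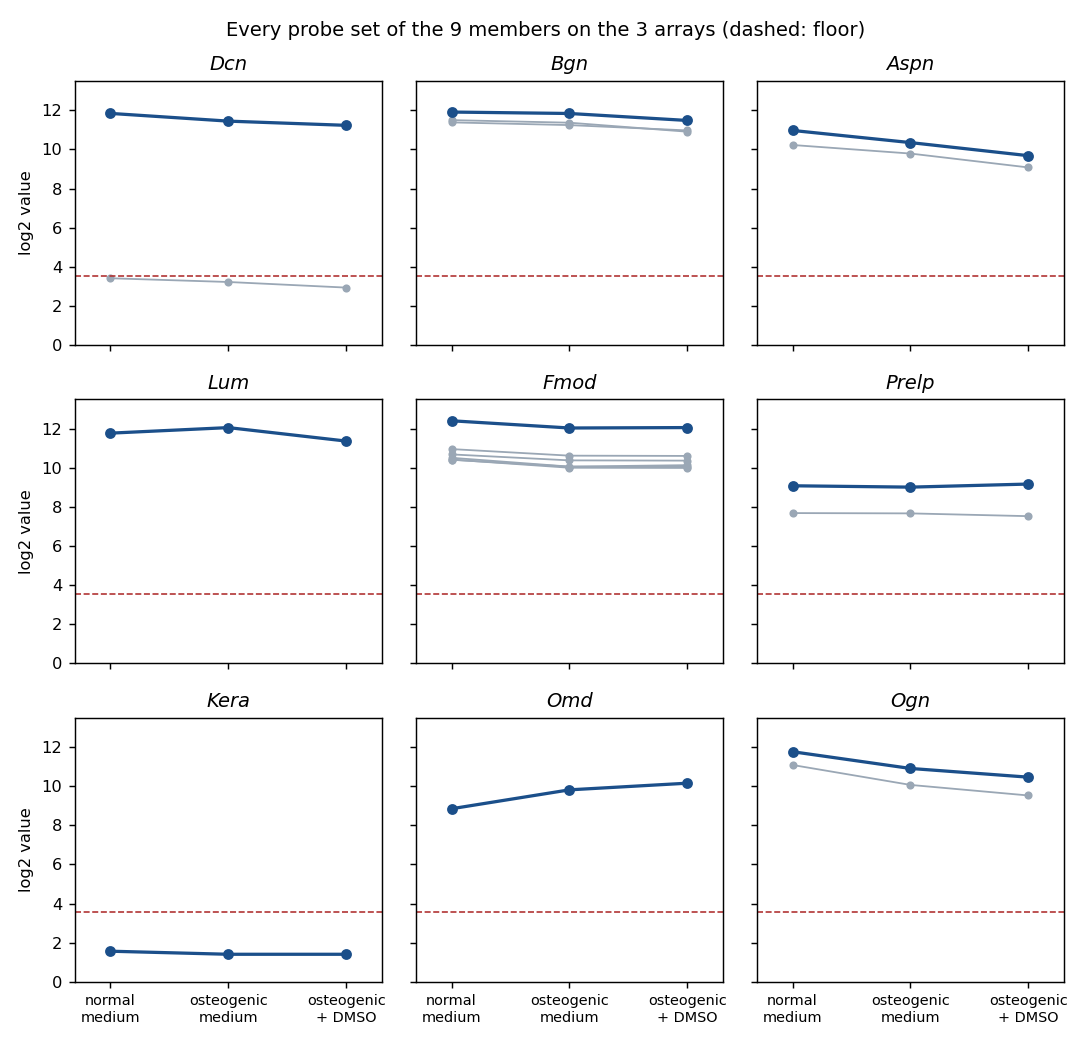
Log2 value (y axis) of each of the 20 probe sets on the 3 arrays (x axis: normal medium, osteogenic medium, osteogenic medium with DMSO), 1 panel per gene; dark blue is the probe set that represents the gene, grey the others, and the dashed line is the floor of 3.54. Ogn and Aspn step down and Omd steps up across the arrays, Lum is highest in osteogenic medium without DMSO, and Kera stays under the floor.

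Omd showed the largest upward difference of the 8 genes above the floor, both between osteogenic and normal medium and with DMSO. Its only probe set, 1418745_at, read 8.85 in normal medium, 9.81 in osteogenic medium and 10.15 in osteogenic medium with DMSO. The lowest value was in normal medium and the highest with DMSO. Osteogenic medium was thus 1.95-fold above normal medium, a log2 difference of 0.97 that stops just under 2-fold, and 58 of 11417 genes above the floor had a larger one. With DMSO the value was higher by a further 0.34, or 1.27-fold, and 215 of 11423 genes had a larger difference. From normal medium to osteogenic medium with DMSO, Omd rose 2.47-fold, with 34 of 11422 genes above it. No second probe set was there to set beside these values.

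Ogn, whose product osteoglycin or mimecan was first isolated from bone, differed in the opposite direction. Its probe set 1419663_at read 11.76, 10.91 and 10.46 in normal, osteogenic and DMSO-containing osteogenic medium, and 1419662_at read 11.08, 10.07 and 9.53. Both probe sets were highest in normal medium and lowest with DMSO. The first was 1.81-fold lower in osteogenic than in normal medium, at -0.86, and the second fell 2.03-fold, at -1.02. With DMSO the differences from osteogenic medium were -0.45 and -0.54. From normal medium to osteogenic medium with DMSO, Ogn fell 2.46-fold by the first and 2.95-fold by the second, and 85 of 11422 genes had a lower difference than the first.

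Aspn encodes asporin, which binds collagen and TGF-beta and is known in cartilage and the periodontal ligament. The probe set 1416652_at read 10.97, 10.35 and 9.68 in the same order, and 1448421_s_at read 10.23, 9.79 and 9.08. Again both were highest in normal medium and lowest with DMSO. Osteogenic medium differed from normal medium by -0.62, or 1.54-fold lower, in the first and by -0.44, or 1.35-fold lower, in the second. Between osteogenic medium with and without DMSO the differences were -0.67 by the first probe set and -0.71 by the second, 1.59-fold and 1.64-fold. Over both steps Aspn fell 2.45-fold and 2.22-fold.

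Set side by side, the changes of the adjacent genes Omd and Ogn differed by 1.82 on the log2 scale between osteogenic and normal medium, and those of Omd and Aspn by 1.59. With DMSO the gaps were 0.79 and 1.01. Aspn and Ogn differed from each other by 0.23 and -0.22 in the 2 comparisons. Both gaps of Omd were thus larger than those between Aspn and Ogn, though all of these gaps were larger than the SD of 1 probe set. Between a pair of probe sets of 1 gene, the 95th percentile of the gap was 0.38 for osteogenic against normal medium and 0.31 for DMSO. By the representative probe sets, the gaps of Omd were above these values and those between Aspn and Ogn below, with the spread between cultures left out. By the second probe sets, Aspn was at -0.44 and Ogn at -1.02 between osteogenic and normal medium, a gap wider than 0.38. Genes were ordered by start coordinate alone, so a gene listed before the block may still run into it. Cenpp, a centromere protein gene that starts before Aspn, was higher by 0.30 and 0.21. Nol8, a nucleolar protein gene listed after Ogn, was higher by 0.15 and then equal. Next along, Iars, an isoleucyl-tRNA synthetase gene, was at -0.32 in osteogenic medium and at -0.16 with DMSO. Ecm2, a related leucine-rich matrix gene beside Aspn, was under the floor on all arrays.

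**Figure D2:**
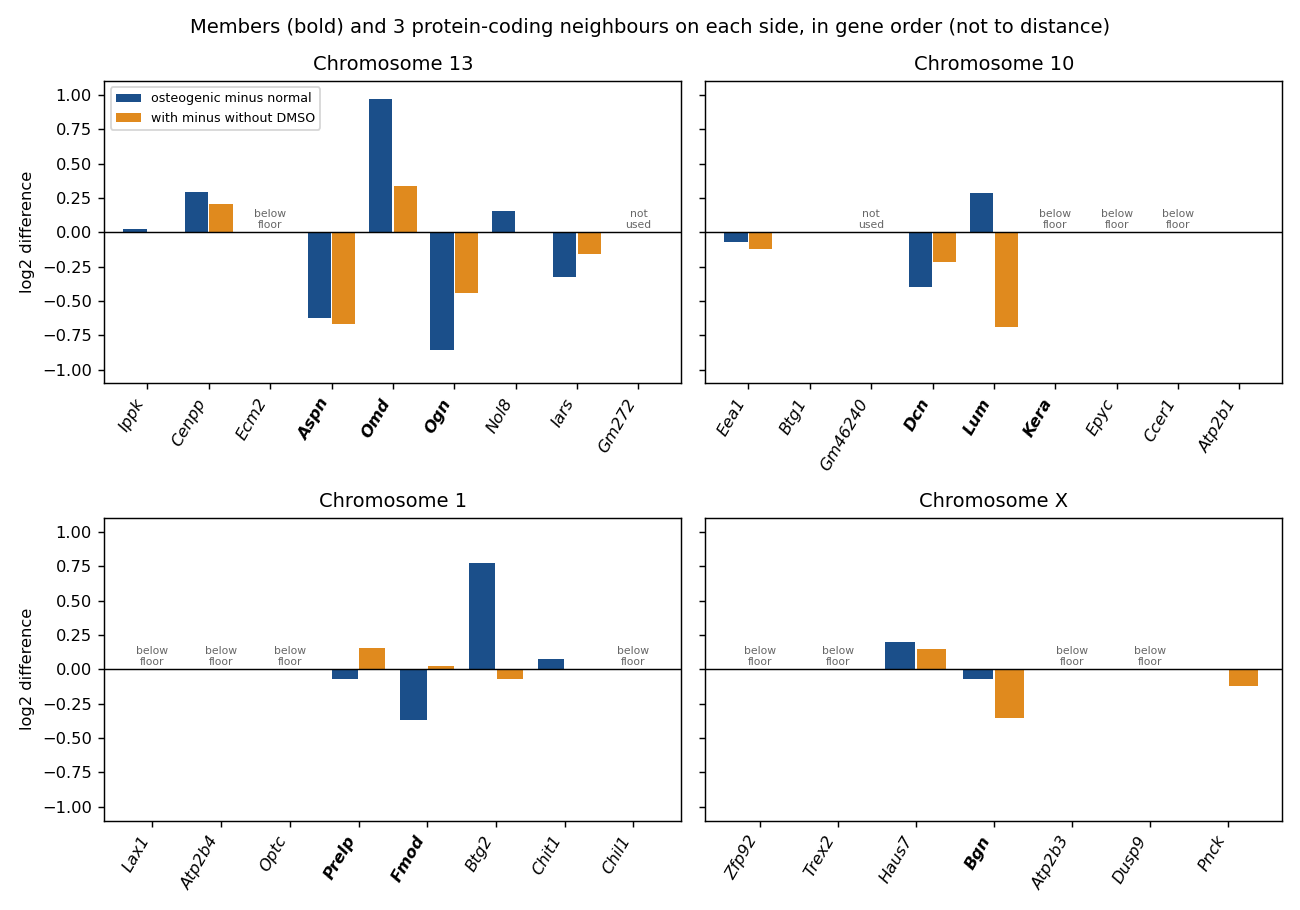
Log2 difference (y axis) of the family's genes (bold) and of 3 protein-coding neighbours on each side, in order of start coordinate along the x axis and not to distance. Blue is osteogenic minus normal medium and orange is with minus without DMSO in osteogenic medium. Genes under the floor on every array and genes without a probe set of 1 symbol are marked; a labelled gene with no bar and no mark had equal values. Omd stands above 0 between Aspn and Ogn, which stand below it.

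Lum encodes lumican, a keratan sulfate proteoglycan that keeps collagen fibrils thin. Its only probe set, 1423607_at, read 11.77 in normal medium, 12.06 in osteogenic medium and 11.37 with DMSO. It was the one gene of the 8 with its highest value in osteogenic medium without DMSO. Lum was higher by 0.28, or 1.22-fold, in osteogenic than in normal medium, and 1.61-fold lower with DMSO than without, at -0.69. Between the DMSO array and normal medium the difference was -0.41. With DMSO, 175 of 11423 genes had a lower difference than Lum.

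Dcn lies next to Lum and encodes decorin, the dermatan sulfate proteoglycan that binds type I collagen and TGF-beta. Its probe set 1449368_at read 11.84 in normal medium, 11.45 in osteogenic medium and 11.23 with DMSO. The steps were -0.39, or 1.31-fold lower, and -0.22, or 1.16-fold lower, and together 1.53-fold lower. Dcn and Lum therefore had different signs between osteogenic and normal medium and the same sign with DMSO. The other probe set of Dcn, 1441506_at, was under the floor at 3.41, 3.22 and 2.94 and gives no change. Kera, the third gene of this block, encodes keratocan, a proteoglycan best known from the cornea. Its probe set 1418063_at read 1.56, 1.40 and 1.40, under the floor on all 3 arrays, so no difference is given. Just outside the block, Btg1 had equal values on all 3 arrays, at 10.42, and Epyc, a class III relative, was under the floor.

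Bgn encodes biglycan, a close relative of decorin that is abundant in bone matrix. Its 3 probe sets agreed in sign in both comparisons. The representative 1416405_at read 11.91, 11.84 and 11.48. Osteogenic and normal medium differed by -0.073, with -0.13 and -0.14 by the other probe sets, within or about the SD between probe sets. With DMSO the differences were -0.36, -0.46 and -0.27, so that the value with DMSO was the lowest by every probe set. That made it 1.28-fold, 1.38-fold and 1.21-fold lower.

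Fmod encodes fibromodulin, a keratan sulfate proteoglycan that binds collagen and guides its crosslinking, and it was read by 6 probe sets. The representative 1456084_x_at read 12.41, 12.04 and 12.06. By all 6, osteogenic medium was lower than normal medium, with differences from -0.45 to -0.30. The differences with DMSO ran from -0.014 to 0.074 over the 6. The step seen for Fmod thus lay between normal and osteogenic medium, whereas that of Bgn lay between osteogenic medium without and with DMSO. Of the 6, 5 have names ending in _x_at, which Affymetrix gives to probe sets whose probes may also match other transcripts, and the remaining one, 1415939_at, gave -0.34 and -0.014. Beside Fmod on the chromosome, Btg2, an antiproliferative gene, was higher by 0.78 in osteogenic medium and at -0.073 with DMSO.

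Prelp encodes PRELP, a proteoglycan with a basic end that binds heparan sulfate and links basement membrane to collagen. Its probe set 1416321_s_at read 9.08, 9.01 and 9.17, and 1416322_at read 7.69, 7.67 and 7.53. Osteogenic medium differed from normal medium by -0.069 and -0.016. With DMSO the probe sets had different signs, 0.16 and -0.14, so no direction is given for Prelp.

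**Figure D3:**
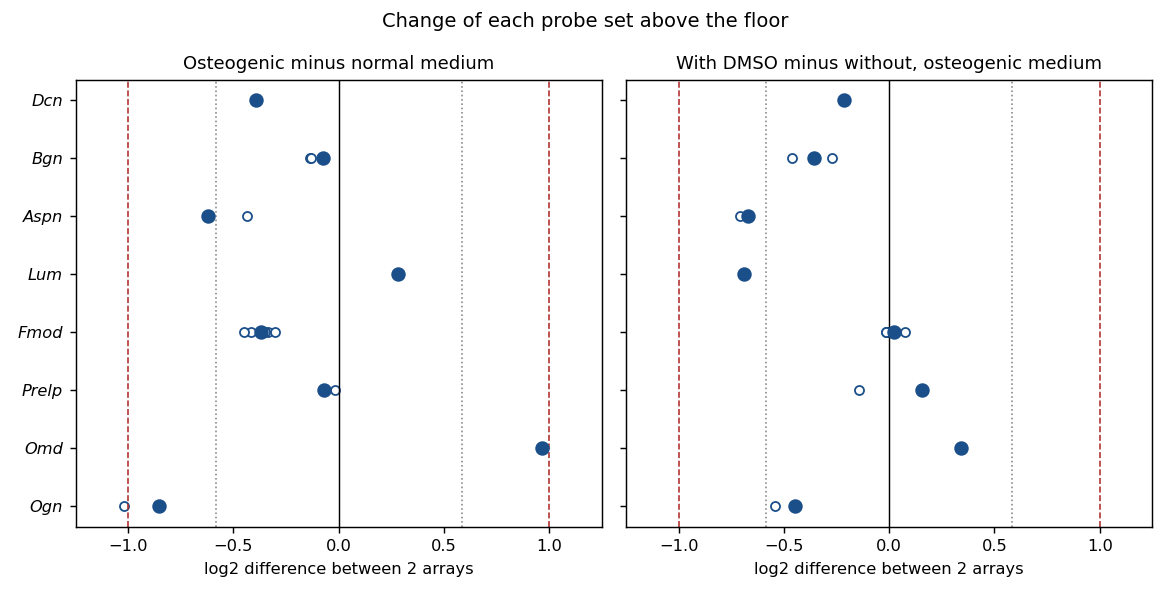
Log2 difference between 2 arrays (x axis) for each probe set above the floor, by gene (y axis), with osteogenic minus normal medium on the left and with minus without DMSO on the right; filled points are the probe sets that represent the genes, open points the others, dashed lines mark 2-fold and dotted lines 1.5-fold. Omd lies just inside the 2-fold line at 0.97, 1 probe set of Ogn passes it at -1.02, and on the right Lum and Aspn pass the 1.5-fold line downward.

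Counted over the 8 genes above the floor, osteogenic against normal medium changed none by 2-fold, where 0.473% of the 11417 genes above the floor rose and 0.184% fell. At 1.5-fold, 1 gene was higher (Omd) and 2 lower (Ogn and Aspn), against 1.75% and 1.61% of genes in those directions. Because the family was chosen with earlier results of these data known, these shares describe and do not test. Of the 8, 2 were above 0 and 6 below, with a median of -0.22, while the median of all genes was 0. Of all genes, 36.5% were above 0, 38.7% below and 24.9% equal. By probe set, 16 of 18 were below 0, though 6 of these read Fmod, and no share over all probe sets is given beside this count.

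For DMSO within osteogenic medium, again none of the 8 changed 2-fold, where 0.0525% of 11423 genes rose and 0.552% fell. At 1.5-fold none was higher and 2 were lower (Lum and Aspn), against 0.35% and 2.12% of genes. In all 3 were above 0 and 5 below, with a median of -0.29 against 0 for all genes. Of all genes, 40.5% were above 0, 30.3% below and 29.2% equal. The 3 above 0 were Omd, Prelp, with 1 of its 2 probe sets below 0, and Fmod, with 4 of its 6 below 0. By probe set, 4 of 18 were above 0 and 14 below, again without a share over all probe sets. The 4 of Fmod among the 14 were at -0.014 or nearer to equal. Both comparisons use the array without DMSO in osteogenic medium, once on each side, so they are not independent. From normal medium to osteogenic medium with DMSO, which is the sum of both steps, 1 gene rose (Omd) and 2 fell (Ogn and Aspn), where 0.604% of 11422 genes rose and 1.34% fell. Dcn, at -0.61, was the only further gene of the 8 past 1.5-fold there, a size that 2.59% of genes passed upward and 4.19% downward. With the mean over its probe sets Dcn stopped short of 1.5-fold, at -0.54, and Bgn passed it in its second probe set, at -0.59. The median of the 8 was -0.42.

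For members that differed by at least 0.5, the genes with the nearest path over the 3 arrays were listed. Likeness was measured as the distance between the pairs of log2 differences, over the 11203 genes that passed the floor on each array. Nearest to Omd were Mob3b (distance 0.023), Tmem119 (0.050), an osteoblast membrane protein gene, and Padi2 (0.072). Tmem119 read 8.46, 9.40 and 9.70. Nearest to Ogn were Ppp1r3b (0.040), Niban1 (0.045) and Aldh3a1 (0.067), and nearest to Aspn were Ablim1 (0.045), Rin1 (0.094) and Fgf7 (0.094), a fibroblast growth factor gene that read 9.90, 9.20 and 8.48. Nearest to Lum were Ccdc102a (0.043), Chd3 (0.062) and Elovl6 (0.070), a fatty acid elongase gene. Within a distance of 0.2 lay 8 genes for Omd, 18 for Ogn, 27 for Aspn and 45 for Lum. Among so many genes some must lie close. The distances to the named genes are under the SD of 1 probe set, 0.13 and 0.11 in the 2 comparisons. Another probe set of Ogn or Aspn could therefore have other nearest genes.

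The wider set of proteoglycan genes was described with fixed lists. Of 9 further genes of the leucine-rich family, 7 had a probe set of 1 symbol and 2 were above the floor. Podn, which encodes podocan, was at -0.17 in osteogenic medium and Chadl at -0.13, and both had equal values with and without DMSO. Of 25 other proteoglycans, 15 were above the floor and none changed 2-fold in either comparison. Of all genes, 0.473% rose and 0.184% fell in osteogenic medium, and 0.0525% and 0.552% with DMSO, so that count says little. Vcan, the large chondroitin sulfate proteoglycan versican, was higher by 0.78 in osteogenic medium, with its second probe set at 0.81. With DMSO it was at -0.43, with the second at -0.26. Srgn, the granule proteoglycan serglycin, was at -0.62 and -0.95. Cspg4 was higher in both, by 0.53 and 0.42, and Tgfbr3, the TGF-beta co-receptor betaglycan, was at -0.28 and -0.47.

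The enzymes that build the sugar chains were also taken from fixed lists. None of the 18 measured genes of the linker and of chondroitin or dermatan sulfate synthesis changed 1.5-fold in either comparison, with medians of 0 and 0.049. Of all genes, 1.75% were higher and 1.61% lower by 1.5-fold in osteogenic medium, and 0.35% and 2.12% with DMSO. With shares that small, a count of 0 in a short list says little. Chst15, a chondroitin sulfotransferase, was higher by 0.50 in osteogenic medium but by 0.14 in its second probe set. From normal medium to osteogenic medium with DMSO, its representative probe set was higher by 0.61, past 1.5-fold. B4galt7 was higher by 0.47 with a second probe set at 0, and Chst11 by 0.46 with one at 0.20. Chst13 was higher by 0.31 with DMSO. Among 9 measured genes of keratan sulfate synthesis and tyrosine sulfation, a modification of fibromodulin and osteomodulin, none changed 1.5-fold either, with medians of -0.13 and 0. Tpst2, a tyrosylprotein sulfotransferase, read 7.26, 7.83 and 8.03 and was the only one above 0 in osteogenic medium. From normal medium to osteogenic medium with DMSO it was higher by 0.77, past 1.5-fold. Chst2 went from 4.63 to 4.19 and back to 4.65. Chst1 and B4galt4 were at -0.27 and -0.20 in osteogenic medium and equal with DMSO.

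Single genes among the partners and proteases of the family differed more than the sugar chain enzymes did. Of all genes above the floor, 0.473% rose and 0.184% fell in osteogenic medium, and 0.0525% rose and 0.552% fell with DMSO. Of 13 measured collagens, Col11a2 rose 2.61-fold in osteogenic medium, and Col2a1 was higher by 0.85. With DMSO none changed 2-fold. Col5a3, a chain of fibril-regulating type V collagen, was at -0.73 with DMSO and Col12a1 at -0.34, with a second probe set at -0.076. Medians were 0.040 and -0.075. Among growth factors and receptors that these proteins bind, none of 14 measured in osteogenic medium or 13 with DMSO changed 2-fold, and the medians were -0.10 and -0.20. At 1.5-fold, 0 changed in osteogenic medium and 2 were lower with DMSO. Ccn2, connective tissue growth factor, was at -0.78 with DMSO, Tgfb2 at -0.65, with its second probe set at -0.53, and Egfr at -0.55, with its second at -0.062, while Bmp4 was higher by 0.52. Of 9 measured proteases that cleave the family, 2 fell in osteogenic medium, the collagenase Mmp13 by 2.64-fold and the aggrecanase Adamts5 by 2.03-fold, although the second probe set of Adamts5 stopped at -0.99. Htra1 and Adamts1 were at -0.67 and -0.62. With DMSO Mmp13 fell a further 3.10-fold, from 6.32 to 4.69, and Adamts5 was higher by 0.34. The protease medians were -0.36 and -0.12.

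**Figure D4:**
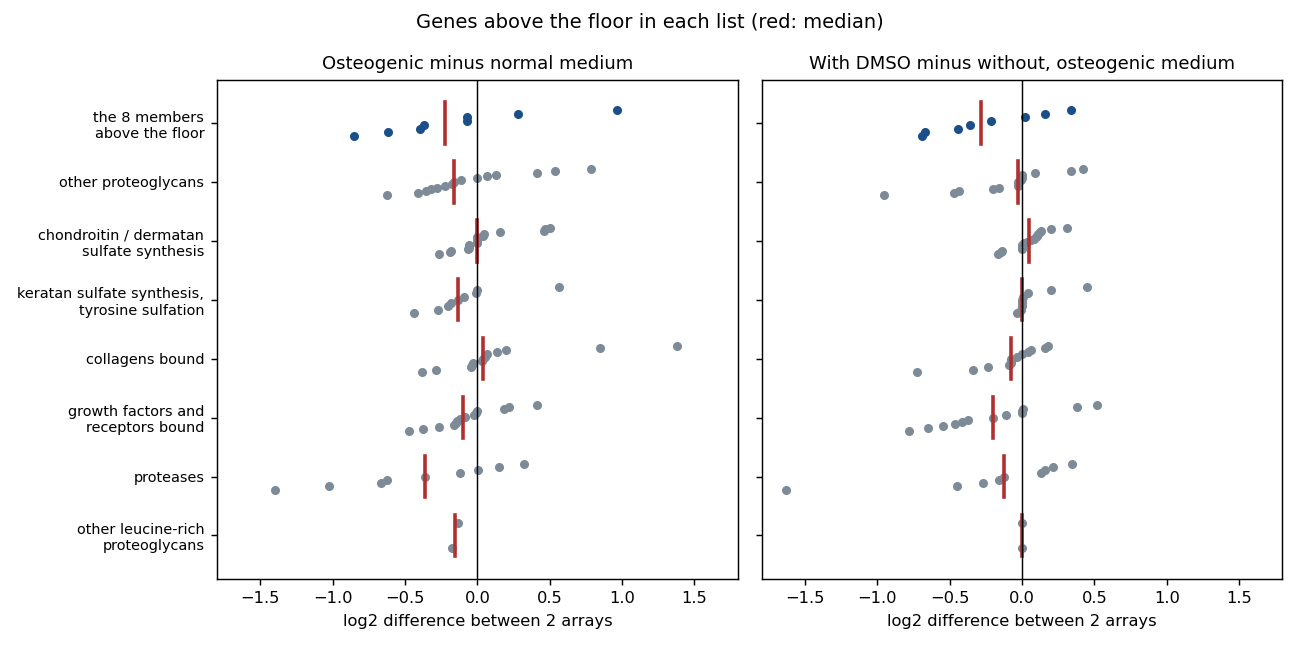
Log2 difference between 2 arrays (x axis) for each gene above the floor in 8 lists (y axis), with osteogenic minus normal medium on the left and with minus without DMSO on the right; each point is 1 gene, spread vertically for legibility, and red bars are medians. The 8 genes of the family spread from -0.86 to 0.97 on the left, and the enzymes of chondroitin and dermatan sulfate synthesis from -0.27 to 0.50.

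The labelled cell type was checked on its markers. Summed levels are the log2 of the sum of unlogged values over all markers of a type that had a usable probe set. Markers under the floor are included, and the brightest marker weighs most. Sp7, Alpl, Ibsp and Col1a1 were above the floor on all arrays; Runx2, Bglap and Spp1 were not analysed here. Alpl read 6.61, 8.31 and 9.02, so it stepped up in the same order as Omd, and Ibsp was at 2.18 and 0.38 in the 2 comparisons. Tendon markers were above the floor for 3 of 4 genes, with summed levels of 7.03, 7.11 and 6.74; in the 2 comparisons Scx was at -0.54 and -0.25, with a second probe set at 0 in both, Tnmd at -0.016 and -0.86, and Mkx at 0.34 and -0.30, and Thbs4 was under the floor. Of 5 chondrocyte markers 4 were above the floor, with summed levels of 8.56, 8.97 and 8.98, and Acan was under it. The macrophage markers Csf1r and Lyz2 were above it, with Ptprc, Cd68 and Adgre1 under it and sums of 6.65, 6.36 and 6.27. Adipoq, Pparg and Fabp4 of fat cells, Pecam1, Cdh5 and Tek of endothelium and Myod1 and Myog of muscle were all under the floor, while Kdr, of endothelium, passed it in normal medium at 3.66 and Des and Ckm, of muscle, read 5.06 and 3.87 on every array. Of 3 corneal markers, Aldh3a1 read 5.23, 4.41 and 3.91, Krt12, a keratin of the corneal epithelium, read 3.66 on each array, with a second probe set at -0.23 with DMSO, and Kera was under the floor. The part of these marker differences in the values of the family was not tested.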

How the data were processed

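RNA of 3 arrays, 1 per culture condition, was read on an Affymetrix GeneChip mouse genome array after 3' IVT labelling, which copies RNA from the poly(A) tail, per the labels' protocols. The authors deposited 1 log2 value per probe set; that the scale is log2 is read from the range of the values, and no source used here gives the summarisation or the normalization. Array medians were 3.54, 3.58 and 3.54, so a change in total RNA per cell would not show. Of 45037 probe sets that are not array controls, 34945 had 1 symbol in the platform annotation and were used. A gene was represented by its probe set of highest mean, values under the 50th percentile of all probe sets were raised to it, and differences between arrays were taken. Genes above the floor on at least 1 of the arrays compared form the background.

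The genes named are all 9 members, up to 4 genes per list with the largest change, and the 3 genes nearest to each member that differed by at least 0.5. Members and lists were chosen with earlier results of these data known. RefSeq promoters came from GRCm38.p6; no coordinates were used for the array values. Alternatives were other floors, other probe sets, median centring, quantile normalization and cyclic loess. Python 3.11.15, numpy 2.4.6, pandas 2.3.3, matplotlib 3.10.9, R 4.3.3 and limma 3.58.1 were used. The code that makes the fold calls was tested on simulated data, which checks its arithmetic and says nothing of the error of these arrays.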

Additional observations from a re-analysis of the deposited data

How the results depend on the processing

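The signs of Omd, Ogn, Aspn, Lum, Dcn and Bgn were the same in every comparison under each of the floors, probe set choices and scalings tried. Their representative probe sets lie far above every floor tried, so the floors could not change them. The deposited arrays had nearly equal medians, so the scalings could move them little. Between osteogenic and normal medium, Omd ranged from 0.93 to 0.98, Ogn from -1.02 to -0.84 and Aspn from -0.66 to -0.44. With DMSO, Lum ranged from -0.71 to -0.65, Aspn from -0.71 to -0.63 and Omd from 0.32 to 0.38. Omd and Lum have 1 probe set each, so a change of probe set does not apply to them. With the second probe set of each gene, 1 member (Ogn) changed 2-fold between osteogenic and normal medium instead of 0, Aspn no longer reached 1.5-fold there (nor with the mean over probe sets, at -0.53), and the median with DMSO was -0.46, over 7 members, since the second probe set of Dcn is under the floor. With its second probe set Prelp changed sign in both comparisons that include DMSO, and with the mean over probe sets in that of DMSO against normal medium (-0.035). Fmod changed sign with its second probe set only for DMSO within osteogenic medium (-0.014). The median of the 8 members between osteogenic and normal medium rests on how few they are: without Lum, Bgn, Omd or Prelp it was -0.37, and without Dcn, Fmod, Ogn or Aspn it was -0.073. No scaling moved the median of all genes by 0.1. No paired analysis was possible because each condition has 1 array. Very dim probe sets, such as those of Kera, give no change at all.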
